A study of Mus musculus with 12 samples.

Results

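The genes described here encode transforming growth factor-beta (TGF-beta) and bone morphogenetic protein (BMP) ligands, their receptors and the SMAD proteins that carry their signal to the nucleus. They were chosen by name: every gene whose symbol starts with Tgfb, Bmp or Acvr, or with Smad followed by a digit, in any of the 3 tables of gene expression in mouse prefrontal cortex (PFC). The rule found 40 names among 39929 gene names listed, and 32 of the 40 were expressed highly enough to be compared at each time point, the same 32 each time, out of 13147 genes compared at 2 h, 13341 at 24 h and 13182 at 7 d. Male C57BL/6 mice (C57BL/6 J in the study's methods), given as 10 weeks old in every group, were used. Their PFC, which here took in prelimbic, orbital and frontal association cortex, was taken 2 h, 24 h or 7 d after the last dose of repeated cocaine or saline. This gave 6 groups, namely cocaine and saline at each time, with 2 RNA-seq libraries per group, 12 in all, and 5 mice pooled in each library. The study asked how expression in the PFC differs between cocaine and saline mice as withdrawal proceeds, and the labels name no genetic change in any group.

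In this pathway a dimeric ligand outside the cell binds a type II receptor, which phosphorylates a type I receptor. The type I receptor then phosphorylates receptor SMADs, which join the common SMAD, enter the nucleus and regulate target genes such as the Id genes. Smad2 and Smad3 serve TGF-beta and activins, whereas Smad1, Smad5 and Smad9 serve BMPs, and Smad6 and Smad7 are inhibitory SMADs that the pathway itself induces as negative feedback. In the brain, TGF-beta is known for its roles in microglia, blood vessels and the response to injury, and BMPs for the formation of astrocytes.

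Expression was given as FPKM, a level scaled to transcript length and library size that allows levels of different genes to be compared. Each group had 1 pooled FPKM over its 2 libraries, so neither an error nor a test between cocaine and saline could be given for any gene, and the depth behind each value is unknown from the tables. The difference is therefore described as the log2 ratio of cocaine to saline FPKM at the same time point. A gene was compared where the 2 groups had a mean of at least 1 FPKM, and was called past the fold where the log2 ratio had a size of at least 0.3, a 1.23-fold difference. As the only measure of spread at hand, the saline spread of a gene was taken as the log2 ratio of the highest to the lowest of its 3 saline values. The 3 tables were scaled separately by the authors, so the saline spread holds time, library and scaling differences together. In tissue RNA, fewer cells of a type and less RNA per cell cannot be told apart.

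The 32 members were expressed at modest levels. Their mean FPKM over the 6 groups had a median of 4.56 and ran from 1.12 for Tgfbi, a secreted matrix protein induced by TGF-beta, to 28.3 for Acvr1b, the type I receptor for activins. Over all 12530 genes compared at all 3 times the median was 8.86 FPKM. In 18 of the 32 members the mean was below 5 FPKM, against 33.4% of all genes. After Acvr1b, the members with the highest levels were Bmpr2, the type II receptor for BMPs, with a mean of 13.5 FPKM, and Smad3 with 12.8 FPKM. Bmpr1a and Smad2 came next at 9.20 and 9.21 FPKM, too close to be ranked. The lowest after Tgfbi were Smad6 at 1.14 FPKM and Tgfbr3, the co-receptor that presents TGF-beta to its receptors, at 1.72 FPKM.

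The other 8 names were not compared, because their mean stayed below 1 FPKM at every time. They were Bmp2, Bmp5, Bmp8a, Bmp8b, a joint entry of Bmp8b with Oxct2b, Bmp10, Bmp15 and Acvr2b. Bmp10, a heart ligand, was listed at 0 in all 6 groups. Bmp2 lay between 0.692 and 0.979 FPKM. Bmp5 was the only one of these to reach 1 FPKM in any group, with 0.812 (saline) and 0.442 (cocaine) at 2 h, then 0.633 and 0.848 at 24 h, then 0.436 and 1.21 at 7 d. Its order thus turned from lower to higher in cocaine, at levels too low to be compared.

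**Figure D1:**
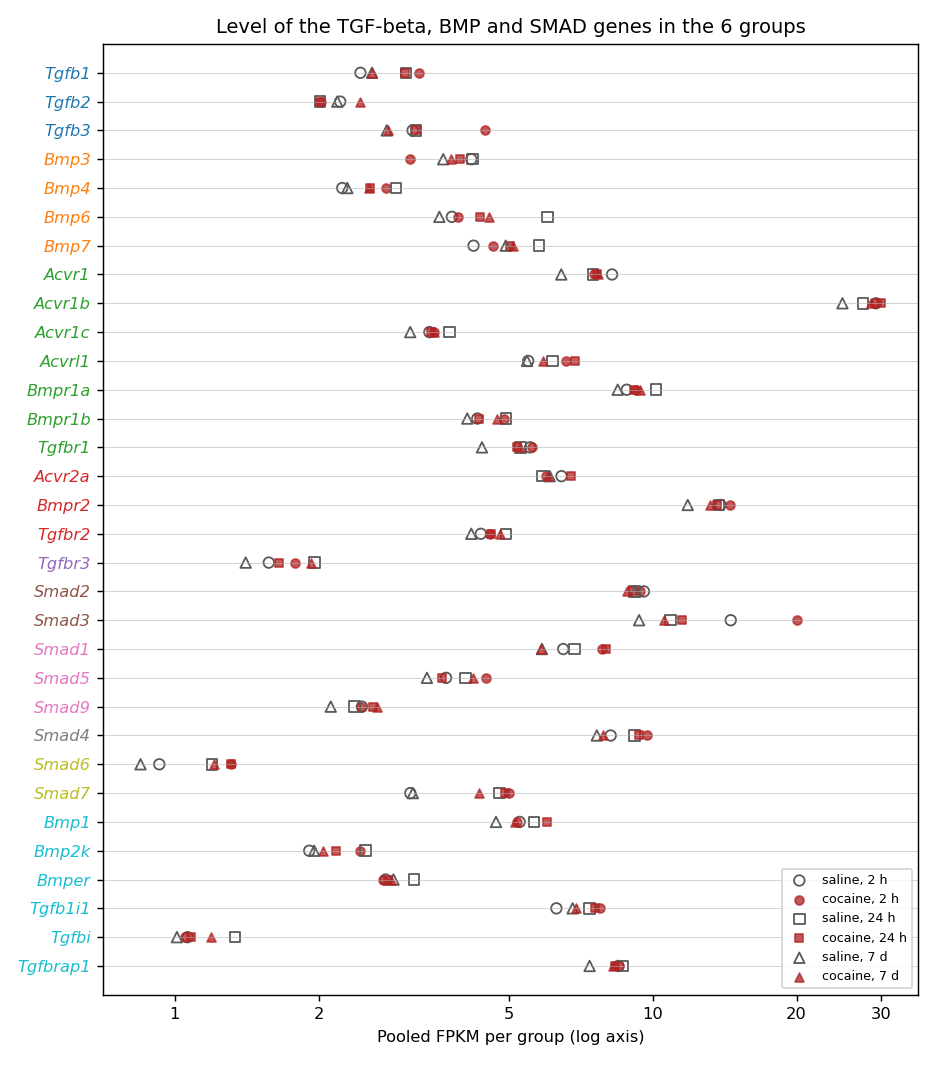
Pooled FPKM of each of the 32 members (rows, coloured by role) in the 6 groups, on a log axis, with open grey symbols for saline, filled red symbols for cocaine, and circles, squares and triangles for 2 h, 24 h and 7 d. Smad3 at 2 h stands to the right of its other values (14.6 FPKM in saline, 20.1 in cocaine), and the 24 h saline value of Bmp6 (6.02 FPKM) stands apart from its other 5.

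At 2 h after the last dose, Tgfb1, Tgfb3, Smad3 and both inhibitory SMADs were higher in cocaine than in saline. Of the 32 members, 8 were past the fold and higher (25%), against 8.39% of all genes compared, and 1 was past the fold and lower, against 5.84%. The members' log2 ratios ran from −0.43 to 0.68 with a median of 0.07, against a median of 0.02 over all genes. In all, 22 members were higher and 10 lower, where 56.6% of all genes were higher. For 6 members the difference was also greater than the saline spread (8.8% of all genes). These were Smad7, Tgfb3, Smad6, Tgfb1 and Tgfb1i1 on the high side and Bmp3 on the low side. The count was 4 of 32 with a pseudocount of 1 added to each FPKM (5.87% of genes). It was also 4 with ratios centred on the median of all genes (8.68%) and with their trend over transcript length taken out (7.81%).

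Among the ligands at 2 h, Tgfb1 and Tgfb3 were higher in cocaine and Tgfb2 was not. Tgfb1, the isoform made mostly by microglia and blood vessels in the brain, had 2.45 FPKM (saline) and 3.25 (cocaine) at 2 h, then 3.05 and 3.04 at 24 h, then 2.59 and 2.58 at 7 d. The 2 h cocaine value was thus above all 3 saline values, while at the later times cocaine and saline lay together. The log2 ratio at 2 h was 0.41 (1.33-fold), and 4.48% of all genes were at least as high. Tgfb3 had 3.15 FPKM (saline) and 4.47 (cocaine) at 2 h, 3.20 in both groups at 24 h, and 2.78 and 2.79 at 7 d. Its log2 ratio at 2 h was 0.51 (1.42-fold), which 2.79% of genes reached, and its saline spread was only 0.20. The entry for Tgfb3 spans 263594 bases, 11.8 times the gene in RefSeq, and takes in the coding genes Erg28 and Ttll5, so reads of these neighbours may be part of its value. Tgfb2 was at 2.22 FPKM (saline) and 2.02 (cocaine) at 2 h, a log2 ratio of −0.14.

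The BMP ligands at 2 h went in different directions. Bmp3, a divergent BMP that opposes other BMPs, was the only member past the fold on the low side, with 4.17 FPKM in saline and 3.11 in cocaine (log2 ratio −0.43). That cocaine value was below all 3 saline values of Bmp3, which lay between 3.65 and 4.20 FPKM. Bmp4, a ligand that promotes glial fates, was at 2.24 FPKM in saline and 2.77 in cocaine (0.31), but its saline value at 24 h was higher still, at 2.91. Bmp6 and Bmp7 had log2 ratios of 0.04 and 0.13.

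The inhibitory SMADs had the highest median log2 ratio of any role at 2 h, 0.59 over the pair, although Tgfb3 was above Smad6. Smad7, which blocks type I receptors and recruits ubiquitin ligases to them, had 3.11 FPKM (saline) and 5.00 (cocaine) at 2 h, then 4.78 and 4.92 at 24 h, then 3.15 and 4.33 at 7 d. Its cocaine values were all within 4.33 to 5.00 FPKM, while the saline values at 2 h and 7 d were low and the one at 24 h was high. The log2 ratio at 2 h was 0.68 (1.61-fold), the highest among the members, and 1.5% of all genes reached it. The saline spread of Smad7 was 0.62. Smad6, which acts mainly on BMP signals, had 0.929 FPKM (saline) and 1.31 (cocaine) at 2 h, then 1.2 and 1.31 at 24 h, then 0.849 and 1.21 at 7 d. All 3 cocaine values of Smad6 were above all 3 saline values. Its log2 ratio at 2 h was 0.50 (2.90% of genes), equal to its saline spread at this rounding. Because its saline level at 2 h and 7 d was below 1 FPKM, Smad6 was compared only through its cocaine level. With at least 1 FPKM required in each group, 7 of 31 members were past the fold and higher at 2 h, against 7.88% of genes.

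Of the receptor SMADs, Smad3 had 14.6 FPKM (saline) and 20.1 (cocaine) at 2 h, then 10.9 and 11.5 at 24 h, then 9.37 and 10.6 at 7 d. Both 2 h groups were above all later groups, and the cocaine group was higher at each time. The log2 ratio at 2 h was 0.46 (1.38-fold, 3.47% of genes), smaller than the saline spread of 0.64, since the saline values themselves ran from 9.37 to 14.6 FPKM. Smad2, the other receptor SMAD for TGF-beta, had a log2 ratio of −0.03 at 2 h and the narrowest saline spread of all members, 0.07. The BMP receptor SMADs Smad1 and Smad5 had log2 ratios of 0.27 and 0.28 and the common Smad4 had 0.25, each just under the threshold. Their 2 h cocaine values (7.84, 4.49 and 9.74 FPKM) were above all 3 of their saline values, as in 30.4% of all genes. Smad9 was at 2.47 FPKM (saline) and 2.45 (cocaine) at 2 h.

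**Figure D2:**
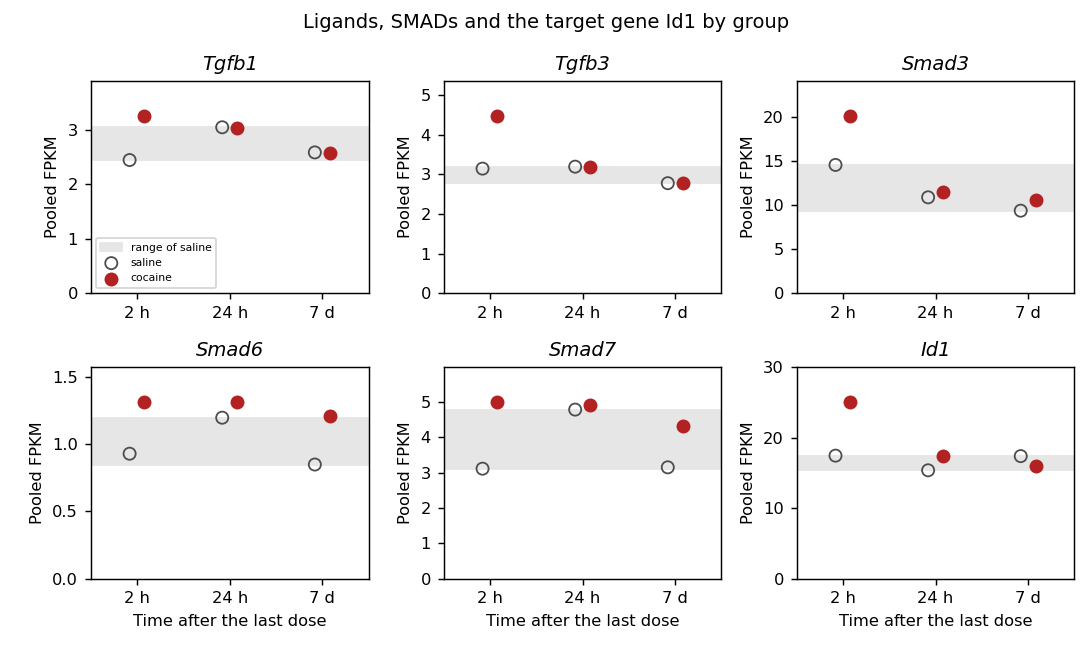
Pooled FPKM of Tgfb1, Tgfb3, Smad3, Smad6, Smad7 and the target gene Id1 at each time, with saline as open and cocaine as filled circles, the range of the 3 saline values shaded and each axis starting at 0. At 2 h the cocaine value lies above the shaded range in all 6 genes shown, as in 12 of the 32 members and 30.4% of all genes. Smad6 and Smad7 are also above it at 24 h (28.8% of all genes), and Smad6 at 7 d (13.5%).

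The 7 type I and 3 type II receptors showed no such difference at 2 h, with median log2 ratios of 0.03 and 0.07 and none past the fold. The type I receptor with the highest ratio was Acvrl1, the endothelial receptor for BMP9, at 5.49 FPKM in saline and 6.60 in cocaine (0.27). Acvr1b, the member with the highest level, was at 29.3 FPKM in saline and 29.2 in cocaine. Acvr1, a type I receptor for BMPs, was at 8.22 and 7.53 FPKM (−0.13).

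Of the 6 other members that the rule took in by name, Bmp2k and Tgfb1i1 were past the fold at 2 h, both on the high side. Bmp2k, a kinase that BMP2 induces in bone cells, was at 1.91 FPKM in saline and 2.44 in cocaine (0.35), but at 2.51 in saline at 24 h. Tgfb1i1, a focal adhesion protein also called Hic-5, was at 6.29 FPKM in saline and 7.75 in cocaine (0.30). Bmp1, a protease that processes procollagen, Bmper, a BMP-binding protein, Tgfbi and Tgfbrap1 had log2 ratios between −0.02 and 0.01. The 2 h count rests on a threshold that several members straddle: Tgfb1i1 and Bmp4 were just inside it at 0.30 and 0.31, and Smad5, Smad1, Acvrl1 and Smad4 just outside at 0.28, 0.27, 0.27 and 0.25.

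Log2 ratios spread more among weakly expressed genes. Among all genes with a mean of 1 to 5 FPKM at 2 h, 14.0% were past the fold and higher, and 6 of the 18 members in that range were. Between 5 and 20 FPKM it was 7.14% of genes and 2 of 13 members, Smad3 and Tgfb1i1. At 7 d the range of 1 to 5 FPKM held all 6 members past the fold, of 19 there, against 12.2% of genes.

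**Figure D3:**
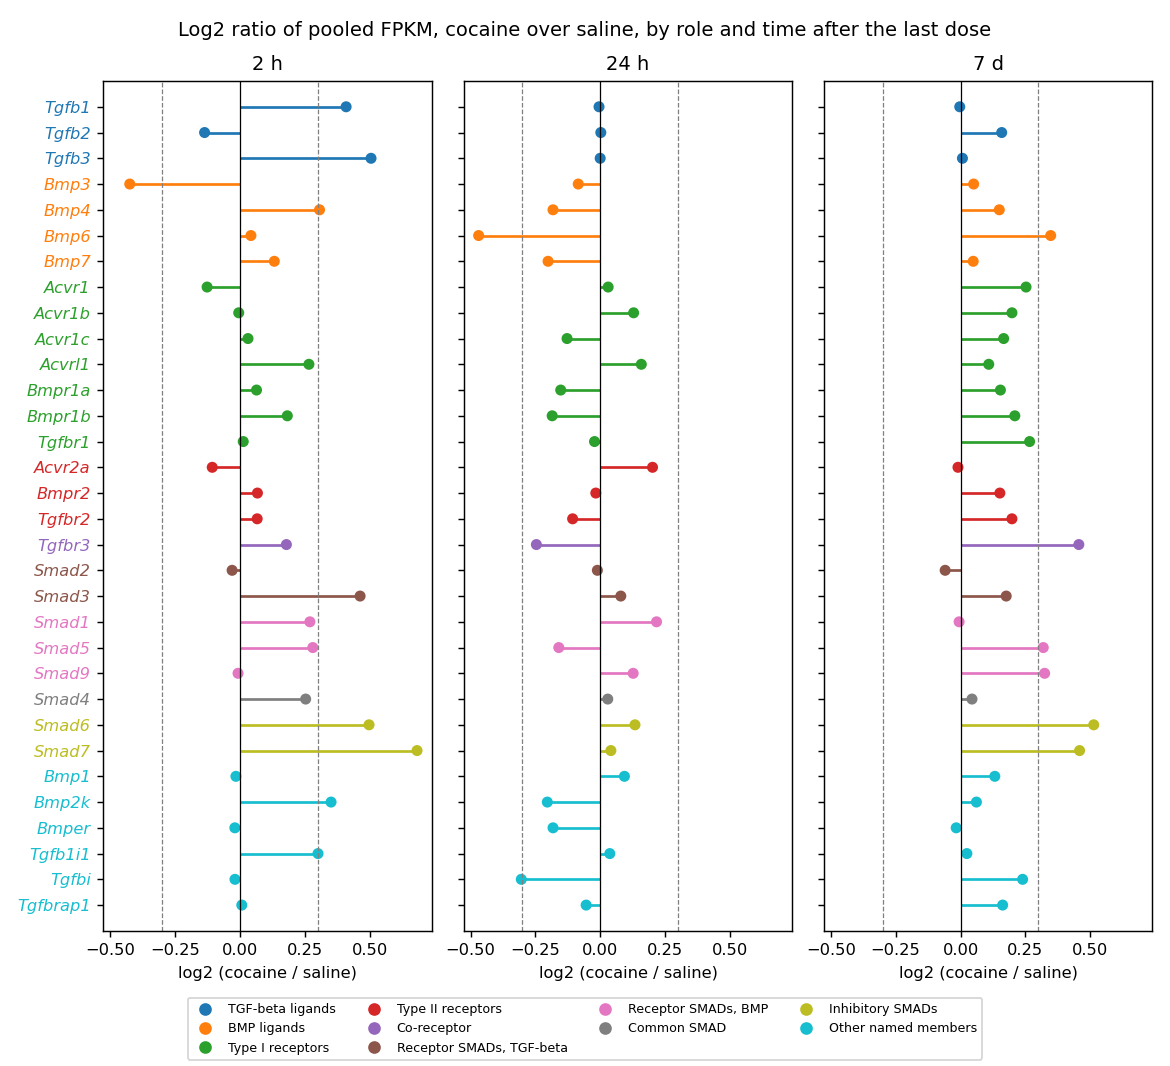
Log2 ratio of cocaine to saline FPKM for the 32 members at 2 h, 24 h and 7 d, coloured by role, with dashed lines at a size of 0.3. At 2 h points lie past the right line mainly among TGF-beta ligands and SMADs, at 24 h none does, and at 7 d nearly all points are on the right of 0.

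The promoters of 3 members that were higher at 2 h are shown, Smad3, Smad6 and Tgfb1, a receptor SMAD, an inhibitory SMAD and a ligand. Each runs from 250 bases before to 50 after the RefSeq start of the gene (GRCm38.p6), 5′ to 3′ on the strand of the gene, and capitals mark the palindrome GTCTAGAC, a known SMAD binding element.
Smad3, chr9:63757945-63758244, minus strand: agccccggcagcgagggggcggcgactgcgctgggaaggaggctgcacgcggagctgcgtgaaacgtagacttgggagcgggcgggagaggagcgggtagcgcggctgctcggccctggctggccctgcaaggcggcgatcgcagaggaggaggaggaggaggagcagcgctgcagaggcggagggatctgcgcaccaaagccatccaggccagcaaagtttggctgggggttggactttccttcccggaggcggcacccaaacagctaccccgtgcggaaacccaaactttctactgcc
Smad6, chr9:64022010-64022309, minus strand: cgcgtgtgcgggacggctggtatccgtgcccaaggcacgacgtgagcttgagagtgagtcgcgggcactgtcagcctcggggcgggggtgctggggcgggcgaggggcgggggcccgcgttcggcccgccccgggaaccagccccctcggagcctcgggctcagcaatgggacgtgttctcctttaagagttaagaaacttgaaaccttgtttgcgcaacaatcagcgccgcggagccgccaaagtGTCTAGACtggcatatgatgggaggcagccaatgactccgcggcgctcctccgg
Tgfb1, chr7:25686752-25687051, plus strand: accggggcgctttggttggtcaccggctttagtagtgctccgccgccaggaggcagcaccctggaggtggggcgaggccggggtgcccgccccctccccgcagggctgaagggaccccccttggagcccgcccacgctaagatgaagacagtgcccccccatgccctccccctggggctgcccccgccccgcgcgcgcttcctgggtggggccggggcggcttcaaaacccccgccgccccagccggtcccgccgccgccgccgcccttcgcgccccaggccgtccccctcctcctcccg
RefSeq promoters were found for 22 of the 32 members. GTCTAGAC, searched on both strands, was in 1 of the 22, that of Smad6, and in 0.213% of 32851 mouse promoters of the same length. This palindrome was added to the search after the sequences had been seen. The shorter SMAD box CAGAC shares the letters AGAC with it but has no match inside it, and was found in 6 of the 22 member promoters and in 49.6% of all promoters. The cyclic AMP response element TGACGTCA (1.79% of all promoters) and the AP-1 site TGANTCA (7.81%) had no match in the 22. A match is a description of letters in this window only.

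At 24 h after the last dose the members differed little between cocaine and saline, and the few larger differences were on the low side. None of the 32 members was past the fold and higher, against 4.62% of all genes, and 2 were past the fold and lower, against 4.1%. The median log2 ratio was −0.01 against 0.01 over all genes, with 13 members higher and 19 lower, where 53.2% of all genes were higher. None was beyond its saline spread, against 3.71% of all genes. The members on the low side were Bmp6, a ligand also known for iron control in the liver, at 6.02 FPKM in saline and 4.35 in cocaine (−0.47), and Tgfbi at 1.34 and 1.08 FPKM (−0.30). In both, the 24 h saline value was the highest of the 6 groups. The cocaine value of Bmp6 at 24 h was within the range of its saline values, 3.58 to 6.02 FPKM.

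By role, all 4 BMP ligands compared were lower in cocaine at 24 h, with log2 ratios from −0.47 to −0.08 and a median of −0.19. Bmp7 was at 5.78 FPKM in saline and 5.03 in cocaine (−0.20) and Bmp4 at 2.91 and 2.56 (−0.18). The 3 TGF-beta ligands had a median that rounds to 0 on the log2 scale, and each had nearly the same FPKM in both groups. Tgfbr3 was at 1.96 FPKM in saline and 1.65 in cocaine (−0.25), the member just outside the threshold. The highest ratios at 24 h were those of Smad1, at 6.86 and 7.97 FPKM (0.22), and Acvr2a, a type II receptor for activins, at 5.88 and 6.76 FPKM (0.20). The entry of Acvr2a spans 508176 bases and takes in Orc4 and Mbd5, so its value may hold their reads.

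At 7 d after the last dose most members were slightly higher in cocaine. The median log2 ratio was 0.16 against −0.01 over all genes, and 27 of the 32 members were higher, against 47.6% of all genes. The 7 d cocaine value was within the range of the 3 saline values in 26 of the 32 (61.3% of genes). It was above that range in 4 (13.5%) and below it in 2 (25.2%). Of the 32, 6 were past the fold and higher (18.8%), against 6.26% of all genes, and none was past the fold and lower, against 8.95%. For 3 of them, Smad5, Smad6 and Smad9, the difference was also beyond the saline spread (6.64% of all genes). With at least 1 FPKM required in each group, which leaves out Smad6, 5 of 31 were past the fold and higher, against 5.53% of genes, and 2 of 31 beyond the spread, against 6.32%. With a pseudocount of 1 added to each FPKM, 1 of 32 was past the fold and higher, against 3.12% of genes, and none was beyond the spread, against 4.33%. With the trend of ratios over transcript length taken out, Smad5 and Smad9 were no longer past the fold, and 1 of 32 was beyond the spread, against 4.16%.

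The inhibitory SMADs again had the highest median of any role at 7 d, 0.49, with log2 ratios of 0.51 for Smad6 (1.53% of genes at least as high) and 0.46 for Smad7 (2.09%). For Smad7 the 7 d cocaine value of 4.33 FPKM was below its 24 h saline value of 4.78, and the ratio was smaller than the saline spread. Tgfbr3 was at 1.41 FPKM in saline and 1.93 in cocaine (0.46), and its 24 h saline value was again higher. Bmp6 was at 3.58 FPKM in saline and 4.56 in cocaine (0.35), the opposite direction to 24 h.

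Of the BMP receptor SMADs at 7 d, Smad5 was at 3.37 FPKM in saline and 4.21 in cocaine (0.32) and Smad9 at 2.12 and 2.66 FPKM (0.32). In both, the 7 d cocaine value was above all 3 saline values. The entry of Smad9 spans 45676 bases at 7 d, but 52405 at 2 h and 24 h, where it takes in Rfxap. The saline range and saline spread of Smad9 therefore mix different entries. Smad1 was at 5.87 and 5.84 FPKM, and Smad2 at 9.20 and 8.83 FPKM (−0.06), the lowest ratio of any member at 7 d. Smad3 was at 9.37 and 10.6 FPKM (0.18).

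All 7 type I receptors were higher in cocaine at 7 d, with log2 ratios from 0.11 to 0.27 and a median of 0.20, although none was past the fold. Tgfbr1, the type I receptor for TGF-beta, was at 4.39 FPKM in saline and 5.29 in cocaine (0.27), just outside the threshold. Acvr1 was at 6.44 and 7.67 FPKM (0.25), Bmpr1b, a type I receptor for BMPs, at 4.09 and 4.73 (0.21) and Acvr1b at 24.9 and 28.6 (0.20). In each of these 4 the 7 d saline value was the lowest of the 6 groups. Among the type II receptors, Tgfbr2, the type II receptor for TGF-beta, was at 4.17 and 4.79 FPKM (0.20) and Bmpr2 at 11.8 and 13.2 (0.15), while Acvr2a was at 6.09 and 6.05. All 4 BMP ligands were also higher, with a median of 0.10, whereas Tgfb1 was at 2.59 and 2.58 FPKM, Tgfb3 at 2.78 and 2.79, and Tgfb2 was at 2.19 and 2.44 FPKM (0.16).

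The members not described above stayed within narrow ranges over the 6 groups. Bmpr1a, a type I receptor for BMPs, lay between 8.45 and 10.2 FPKM, both of them saline values, with log2 ratios of 0.06, −0.15 and 0.15 at 2 h, 24 h and 7 d. Acvr1c, a type I receptor for activin and nodal, lay between 3.11 and 3.76 FPKM (0.03, −0.13 and 0.17). Tgfbrap1, an adaptor that binds TGF-beta receptors, lay between 7.38 and 8.67 FPKM (0.01, −0.05 and 0.16), Bmp1 between 4.70 and 6.02 FPKM (−0.02, 0.09 and 0.13) and Bmper between 2.72 and 3.17 FPKM (−0.02, −0.18 and −0.02). In 4 of these 5, all but Bmper, the 7 d saline value was the lowest of the 6 groups.

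**Figure D4:**
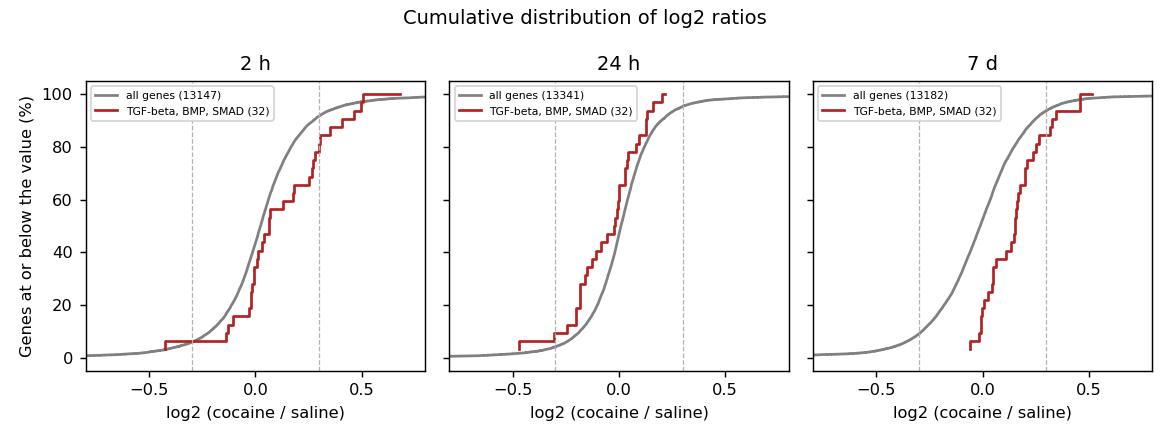
Cumulative share of genes (vertical, %) at or below each log2 ratio (horizontal) for the members (red) and all genes compared (grey) at each time, with dashed lines at a size of 0.3. The red curve leaves the grey one on the right side at 2 h, where 8 of 32 members are past the upper line, lies close to it at 24 h, and is shifted right over nearly its whole length at 7 d (median 0.16 against −0.01).

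Over the 3 time points, 6 of the 32 members were higher in cocaine each time (Acvrl1, Smad3, Smad4, Smad6, Smad7 and Tgfb1i1), a share of 18.8% against 18.9% of the 12530 genes compared at all times. The 2 members lower each time, Smad2 and Bmper, stood against 14.5% of genes. Neither share was above that over all genes as reported. Higher each time were 7 of 32 with ratios centred on the median of all genes (17.2% of genes). The count was 6 of 32 with the length trend taken out (16.6%) and 4 of 12 with a minimum of 5 FPKM (18.4%). These shares were above that over all genes, which in the other settings was not the case. The share lower each time was below that over all genes in every setting. Each time point had its own saline group, so the 3 ratios of a gene share no samples.

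The saline groups themselves differed between times. From 2 h to 24 h the members' saline levels had a median log2 ratio of 0.15, and 10 of the 32 differed by 0.3 or more, against 11.7% of all genes. From 24 h to 7 d the median was −0.23, with 7 of 32 that far apart against 19.7% of genes. From 2 h to 7 d it was −0.09, with 3 of 32 against 17.9%. Between the cocaine groups the medians of the same 3 steps were −0.01, −0.03 and −0.04. The members that far apart in cocaine were 4 of 32 from 2 h to 24 h (13.0% of genes), 1 from 24 h to 7 d (12.6%) and 5 from 2 h to 7 d (17.5%). The median spread over the 3 times was 0.26 in saline and 0.17 in cocaine for the members, against 0.21 and 0.19 for all genes. The saline and cocaine spreads were 0.75 and 0.22 for Bmp6, 0.62 and 0.21 for Smad7 and 0.48 and 0.23 for Tgfbr3, so the ratios of these genes moved mainly with their saline level. Whether this comes from the animals, the libraries or the separate scaling of the tables cannot be told apart.

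Other genes of the pathway were taken from a list of 77 without the members. Of the 49 compared at 2 h, 10 were past the fold and higher, against 8.39% of all genes, and 2 were lower, against 5.84%, with a median log2 ratio of 0.09. At 24 h 2 of 48 were higher, against 4.62%, and 1 was lower, against 4.1% (median −0.03). At 7 d 9 of 49 were higher, against 6.26%, and 1 was lower, against 8.95% (median 0.09).

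Target genes made up most of the list's 2 h count, with 7 of 12 past the fold and higher (8.39% of all genes), none lower, and a median of 0.37. The list was drawn up with earlier results of these data known, so the 7 of 12 describes these genes only. It is no independent measure of pathway output. The Id genes encode inhibitors of differentiation that BMP signals switch on. Id1 was at 17.5 FPKM (saline) and 25.1 (cocaine) at 2 h (0.52), at 15.4 and 17.4 at 24 h, and at 17.4 and 16 at 7 d. Its 2 h cocaine value stood above all others. Id3 was at 22.9 and 30.9 FPKM at 2 h (0.43) and Id4 at 23.5 and 31.3 (0.41), but Id2, one of the 3 genes with the highest level on the list, was at 90.7 and 81.7 (−0.15). Junb, an AP-1 subunit that neuronal activity also induces, was at 11.4 and 61.6 FPKM at 2 h (2.44), at 20.2 and 33.7 at 24 h (0.74) and at 12.9 and 17.9 at 7 d (0.47). Myc, a growth regulator, was at 1.12 and 1.87 FPKM at 2 h (0.74) and Ctgf, a matrix protein, at 2.32 and 3.80 (0.71). Cdkn1a, a cell cycle inhibitor that many stimuli induce, was at 11.2 and 14.1 FPKM (0.33). At 2 h the ratios of Junb, Id1, Id3, Id4, Ctgf and Cdkn1a were greater than their saline spreads of 0.82, 0.18, 0.26, 0.17, 0.65 and 0.05, while that of Myc was smaller than its spread of 0.92.

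At 24 h only Junb among the targets was past the fold on the high side, and Myc was on the low side at 2.12 FPKM in saline and 1.56 in cocaine (−0.44), both within their saline spreads. At 7 d, 5 of 12 targets were past the fold and higher (6.26% of all genes), Junb, Ctgf (0.42) and 3 matrix genes: Col1a1 (0.54), Col1a2 (0.39) and Fn1 (0.32). The ratios of Col1a1 and Fn1 were greater than their saline spreads of 0.43 and 0.19, and those of Junb, Ctgf and Col1a2 (spread 0.44) were not. None of the Id genes was among them, with Id1 at −0.12.

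Among the other ligands and antagonists, Inhbb, the beta B subunit of activin and inhibin, was higher in cocaine each time, with 1.76 and 3.34 FPKM at 2 h (0.92), then 1.79 and 2.28 at 24 h (0.35), then 1.39 and 1.74 at 7 d (0.32). Its saline spread was 0.37, which only the 2 h ratio exceeded. Inha, the inhibin alpha subunit, was at 5.23 FPKM (saline) and 3.70 (cocaine) at 2 h (−0.50), with a saline spread of only 0.04. Fst, the activin-binding protein follistatin, was at 0.984 and 1.71 FPKM at 2 h (0.80), and was compared only at that time and only through its cocaine level. Lrrc32, which holds latent TGF-beta at the cell surface, was at 1.16 and 1.66 FPKM at 2 h (0.51, within its spread of 0.57), and the BMP co-receptor Hfe2 at 2.75 and 2.14 (−0.36, beyond its spread of 0.09).

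At 7 d the latent TGF-beta binding proteins Ltbp1 and Ltbp4 were past the fold and higher, Ltbp1 at 1.19 and 1.57 FPKM (0.40) and Ltbp4 at 12 and 16.8 (0.48). So was Ep300, a histone acetyltransferase that SMADs recruit, at 3.90 and 4.91 FPKM (0.33). Inhba, the beta A subunit of activin, was at 10.0 FPKM in saline and 7.93 in cocaine (−0.34), but its saline level ran from 4.64 to 10.0 FPKM over the 3 times. The other 2 genes with the highest levels on the list, Fkbp1a, which holds type I receptors inactive, and Ppm1a, a SMAD phosphatase, had log2 ratios between −0.04 and 0.07 at all times. Of the list's genes past the fold at 7 d and named here, Ltbp4 was beyond its saline spread of 0.43, while Ltbp1 (spread 0.53), Ep300 (0.51) and Inhba (1.11) were within theirs.

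Markers of the tissue and of other cell types gave these values beside the members. Over all genes compared, 8.39% were past the fold and higher at 2 h and 5.84% lower. The same shares were 4.62% and 4.1% at 24 h, and 6.26% and 8.95% at 7 d. Each marker list holds at most 5 genes, so 1 gene is a large part of a list. Neuron markers were all present at summed levels of 2405 to 2520.5 FPKM, with median log2 ratios of 0.03 to 0.05. All 5 red blood cell genes were past the fold and higher at 2 h (median 0.64), summed 323 FPKM in saline and 504 in cocaine, against 458 and 504 at 24 h and 452 and 529 at 7 d. At 7 d, 1 of these 5 was past the fold and higher. Endothelial and mural markers at 2 h had medians of 0.13 and 0.16, with none of 5 and 1 of 5 past the fold. At 7 d, 3 of 5 mural markers were past the fold and higher (median 0.31, summed 43.8 and 51.8 FPKM). Meningeal fibroblast markers had 2 of 5 past the fold at 7 d, the collagens Col1a1 and Col1a2 already given as targets. Astrocyte markers had medians of 0.15, −0.22 and 0.15 at 2 h, 24 h and 7 d (summed 313 to 367 FPKM in saline and 327 to 351 in cocaine), the same signs as the BMP ligands' medians of 0.09, −0.19 and 0.10. At 24 h, 2 of the 5 astrocyte markers were past the fold and lower, against 4.1% of all genes. Meningeal fibroblast (0.12, −0.21 and 0.12), microglia (0.12, −0.12 and 0.08) and oligodendrocyte precursor markers (0.07, −0.22 and 0.26) had the same order of signs, as had the endothelial markers (0.13, −0.04 and 0.16, with 1 of 5 past the fold at 7 d). Also past the fold and lower at 24 h were 1 of 5 meningeal fibroblast and 1 of 2 oligodendrocyte precursor markers. For microglia, 1 of 5 was past the fold and higher at 2 h. Oligodendrocyte markers had medians of −0.13, −0.23 and −0.03, and markers of cortical projection neurons −0.07, 0.13 and 0.03. Of the 4 cortical projection markers, 1 was past the fold on each side at 7 d. Striatal markers were low, summed 18.0 to 21.9 FPKM, of which 4 of 5 are listed by name. Of the 3 striatal markers compared, 1 was past the fold on each side at 2 h and again at 7 d. Choroid plexus markers were summed at 2.70 FPKM (saline) and 1.38 (cocaine) at 2 h, then 2.75 and 2.07 at 24 h, then 1.41 and 7.43 at 7 d. Ttr, the only one of these 5 high enough to be compared, had log2 ratios of −2.04, −0.71 and 4.53 at the 3 times, and 1 of the 5 was at 0 in the 2 h cocaine group. No listed marker of the other cell types was at 0 in any group. The part of these cell types in the members' ratios was not tested.

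At 7 d the ratios also moved with transcript length over all genes. Spearman's rho between log2 ratio and the length of the longest coding transcript was 0.48 across 10936 genes at 7 d, against 0.16 at 2 h and 0.09 at 24 h. The genes of a table share the same 2 groups and are not independent points. The members had long transcripts, with a median of 3766 nt against 3052 nt over all genes at 7 d. With the length trend over all genes taken out, the members' median at 7 d was 0.08 instead of 0.16. In that setting 26 of 32 members were still higher, against 49.9% of all genes. All 7 type I receptors were among them (0.02 to 0.26), Acvr1c only just, at 0.02. At 2 h the median without the trend was 0.02, with 18 of 32 higher, against 49.9% of all genes. The spread of members over both sides was then close to even. For single members at 7 d the values without the trend were 0.52 for Smad6, 0.42 for Smad7, 0.37 for Tgfbr3, 0.33 for Bmp6, 0.24 for Smad9 and 0.19 for Smad5. At 2 h they were 0.64 for Smad7, 0.47 for Smad6 and for Tgfb3, 0.40 for Smad3 and 0.38 for Tgfb1. The source of the length trend was not tested.

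**Figure D5:**
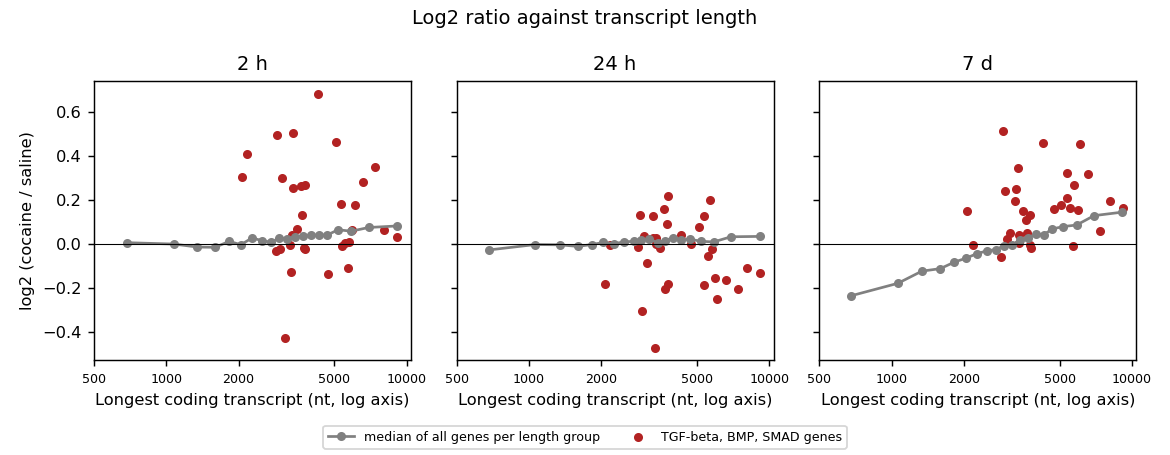
Log2 ratio of each member (red) against the length of its longest coding transcript (nt, log axis) at each time, with the median of all genes in each of 20 length groups in grey. From the shortest to the longest group the grey line climbs from −0.23 to 0.15 at 7 d, where most members lie on or above it. It climbs less at 2 h (0.01 to 0.08) and at 24 h (−0.03 to 0.04).

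The entries of 4 more members overlap another coding gene: Acvr1 with Upp2, Bmp2k with Paqr3, Bmp6 with Txndc5 and, at 2 h and 24 h, Smad9 with Rfxap. Counting by strand is not given in the sources used here, so their values may hold reads of these neighbours. The entries of Smad3 (chromosome 9, 63646767 to 63757994 at 2 h), Smad6 (chromosome 9, 63953076 to 64022059), Smad7 (chromosome 18, 75367343 to 75395935 at 2 h) and Tgfb1 (chromosome 7, 25687002 to 25705077) on GRCm38 overlap no other coding gene.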

How the data were processed

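RNA-seq of polyA RNA from the PFC was analysed in 6 groups, cocaine and saline at 2 h, 24 h and 7 d, with 2 libraries of 5 pooled mice each. The submitters' processing notes name CASAVA 1.8.2, Trimmomatic 0.32, TopHat2 2.0.12, Cufflinks 2.2.1 and Cuffdiff with GRCm38 (mm10), whereas the paper's methods name cutadapt, mm9 and only uniquely mapped reads. These sources also differ in the read length and in the number of libraries, and the 12 samples that the labels list were taken as the libraries. The loci overlapped the same-named RefSeq genes of GRCm38.p6 in 97.8% to 99.8% of cases, and positions are given on that build. The FPKM values deposited by the authors are 1 per locus and group, pooled over the 2 libraries by Cuffdiff, in 1 table per time point. The tables also hold the authors' own log2 fold changes, test statistics, p and q values and calls, which were not used. They name their groups C_2H and 2H and so on, where the sample descriptions use C for cocaine. The first group was taken as saline and the second as cocaine, because the paper's supplementary tables, whose heads name saline and cocaine, hold nearly the same FPKM values in that order. No table holds an unassigned column of sample values (0 columns).

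Log2 ratios of cocaine to saline FPKM were taken without a pseudocount for loci with status OK, a mean of at least 1 FPKM and both groups above 0, with the longest locus for a name listed more than once. With 1 pooled value per group, no test, SD or depth can be given, and a limma fit was planned only for values per library. Every member with a mean of at least 1 FPKM is named. Of the pathway list, genes past the fold of 0.3 at any time and the 3 with the highest level are named. The members and lists were chosen with earlier results of these data known. Transcript length was that of the longest protein-coding transcript of a symbol in GENCODE M1 and was found for 82.9% to 83.5% of genes compared and for 32 of 32 members. Alternatives were a pseudocount of 1, no minimum or a minimum of 5 FPKM, the locus with the highest FPKM, centring on the median of all genes, the length trend taken out (medians of 20 groups), loci of every status and thresholds of 0.2 and 0.5. At least 1 FPKM in each group was added after seeing the data. Promoters are RefSeq sequences of GRCm38.p6, searched for 4 motifs on both strands. The steps were tested on simulated data, using pandas 2.3.3 and numpy 2.4.6 under Python 3.11.15, and figures were drawn with matplotlib 3.10.9.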

Additional observations from a re-analysis of the deposited data

Results flagged for a closer look

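Bmp6 was past the fold in opposite directions at 24 h (6.02 FPKM in saline and 4.35 in cocaine, log2 ratio −0.47) and at 7 d (3.58 and 4.56 FPKM, 0.35), a gap of 0.82 between the ratios. Myc, from the list of target genes, was past the fold and higher at 2 h (1.12 and 1.87 FPKM, 0.74) and lower at 24 h (2.12 and 1.56 FPKM, −0.44), a gap of 1.18. In both genes the saline value at 24 h was the highest of the 3 saline values. These differences between time points were not tested, since each rests on pooled values and no values per library were given.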

How the results depend on the processing

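No paired analysis was possible because the deposited columns pool the 2 libraries of each group, and leaving out a replicate was not run for the same reason. Centring on the median of all genes, the locus with the highest FPKM, loci of every status and at least 1 FPKM in each group moved no count of members by more than 1.5 times. The median log2 ratios at 2 h, 24 h and 7 d, 0.07, −0.01 and 0.16 as reported, were 0.02, −0.03 and 0.08 with the length trend taken out, 0.04, 0.03 and 0.11 with a minimum of 5 FPKM, 0.06, −0.01 and 0.13 with a pseudocount of 1, and 0.04, −0.02 and 0.17 with centring, so that at 24 h the sign turned with the minimum of 5 FPKM. With a pseudocount of 1, which shrinks ratios of low genes by construction, 4 members were past the fold and higher at 2 h (5.28% of all genes), 1 lower at 24 h (2.2%) and 1 higher at 7 d (3.12%), with 0 beyond the saline spread at 7 d (4.33%). Without a minimum FPKM, 2 were lower at 2 h (8.13% of genes) and 1 higher at 24 h (6.54%). With a minimum of 5 FPKM fewer members enter: 2 of 14 were higher (5.43%) and 0 lower (2.44%) at 2 h, 1 was beyond the saline spread (4.93%), 1 of 16 was lower at 24 h (1.49%), 0 of 13 were higher (3.02%) and 0 beyond the spread (4.51%) at 7 d, and 1 of 12 was lower at all 3 times (15.5%). With the length trend taken out, 1 was beyond the saline spread at 7 d (4.16%). At a threshold of 0.2, 2 were higher (9.99%), 5 lower (8.78%) and 1 beyond the spread (7.66%) at 24 h, and 10 higher at 7 d (13.8%). At 0.5, 2 were higher (2.86%), 0 lower (2.10%) and 2 beyond the spread (3.15%) at 2 h, 0 lower at 24 h (1.45%), and 1 higher (1.62%) and 1 beyond the spread (1.83%) at 7 d. Log2 ratios of single named genes were counted once per gene, time and setting. Of these, 17 moved by more than the SD of the gene's saline values and 1182 did not. For Fst, not compared at all 3 times, the median SD of the members was used in its place. The moves were 10 with the length trend taken out, 6 with a pseudocount and 1 with centring. Settings that only filter genes by level or status leave a ratio unchanged by construction, and they make up part of the 1182. Among ratios past the fold 0 changed sign, which a pseudocount cannot bring about by construction. Other than where the construction of a setting shows it, the cause was not tested. The number of libraries pooled and the unknown depth limit every value here.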
